A study of Caenorhabditis elegans with 4 samples.

Results

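The genes called by the authors as responding to arsenite in wild-type Caenorhabditis elegans are described here. They are all 151 rows of the deposited table that sets stressed against unstressed N2, of 393 rows in the 4 deposited tables, and they were selected by the table alone. N2 is the standard laboratory wild type. The study's RNA-seq libraries are from whole young adults of N2 and of the strain VZ1, known as a carrier of a deletion in the thioredoxin gene trx-1. The groups used here are N2 left on Escherichia coli OP50 (unstressed N2), N2 kept for 5 h in 10 mM sodium arsenite (stressed N2), and, for a side-by-side reading, VZ1 under the same 2 conditions. Any difference in food or handling between the 2 conditions cannot be told apart from arsenite, in either strain. Each group is 1 library from a population of animals, so no value has a replicate error and no difference has a replicate check.

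Arsenite binds thiol groups and makes reactive oxygen species. Known worm responses to it run through SKN-1, the Nrf-family transcription factor that drives detoxification genes in the intestine, and through HSF-1, which drives heat shock genes when proteins misfold. Detoxification runs in steps: oxidoreductases make a compound reactive, transferases join it to glutathione or a sugar, and ATP-driven pumps export the product.

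Levels are FPKM, fragments scaled to exon length and to the fragments mapped, so that levels of different genes can be set side by side. Folds are log2 of stressed over unstressed FPKM, with no pseudocount. "Rose" and "fell" mean that the authors' deposited table calls the gene at a q below 0.05; that call compares 2 libraries. Of 14397 genes tested 151 were called, a background of 1.05%: 115 rose (0.799%) and 36 fell (0.25%). Shares of gene lists given below are of all annotated members, tested or not, while the background is of genes tested. How many members of each list were tested is not known, so list shares and background are not like for like. In 24 rows a library is listed at 0, and these have a direction but no fold. Among these 24 are all 6 loci wider than 50 kb, which are described apart.

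Of the 101 rising genes above 0 in both libraries, 50 stood below 10 FPKM without stress, and none stood above 1000 FPKM. Under arsenite 62 of them were at 100 FPKM or more, and 12 were above 1000 FPKM. Their median went from 10.4 to 177 FPKM. The 26 falling genes above 0 in both libraries had a median of 101 FPKM without stress and 15.3 FPKM with it. A low start of the genes that rose and a high start of those that fell follow in part from the call itself, which needs a level well above 0 in at least 1 library. In whole animals fewer cells of a type and less RNA per cell cannot be told apart. Rises of at least 5 on the log2 scale numbered 25, against 4 falls of that size. The smallest change listed was 4.01-fold, that of the lin-38 locus, so smaller changes are not on the list.

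**Figure D1:**
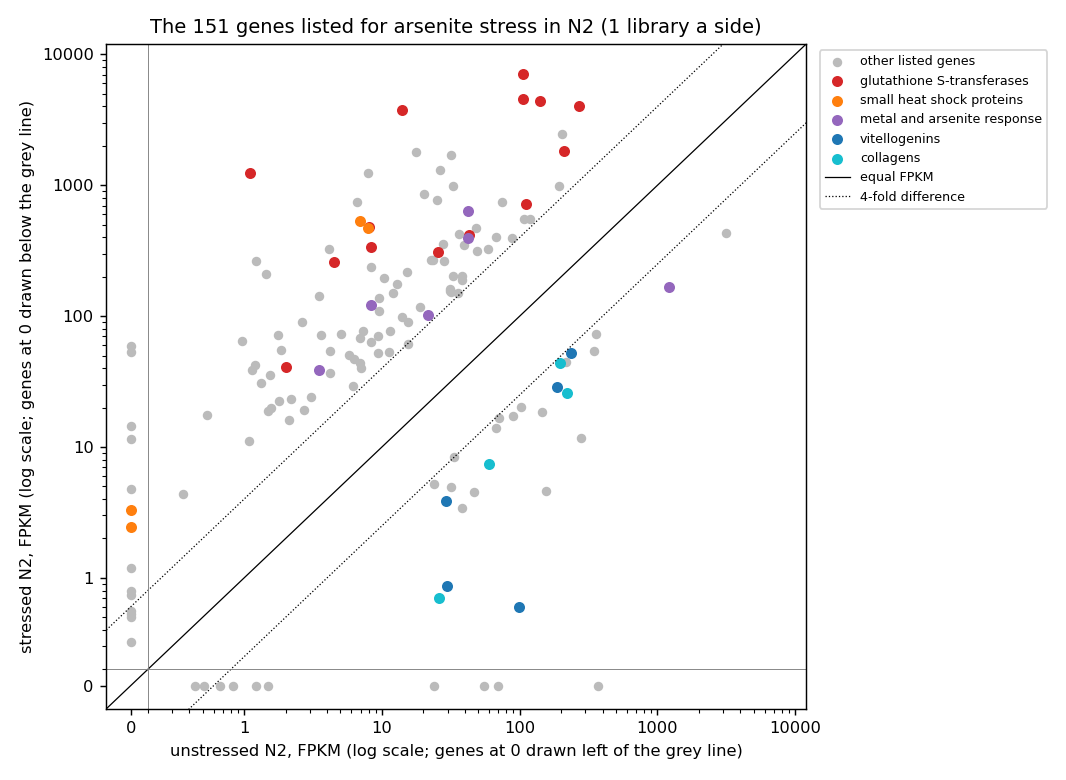
FPKM of all 151 listed genes in unstressed N2 (x axis) and stressed N2 (y axis), both on log scales, 1 point a gene; genes at 0 in a library are drawn beyond the grey lines, and dotted lines mark a 4-fold difference. Glutathione S-transferases fill the top of the plot, up to 7025 FPKM, and the vitellogenins and collagens lie below the lower dotted line.

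Glutathione S-transferases, which join glutathione to electrophiles, made up the largest share of the rising RNA. Of 47 annotated genes 14 rose and none fell, which is 29.8% against the background of 1.05%. Their summed level went from 1049 to 29382 FPKM. That is 52.8% of the summed stressed level of all rising genes at loci of up to 50 kb, where without stress it was 34.2%. In the stressed library 7 of the 12 genes above 1000 FPKM are gst genes. The members ended at very different levels, from 40.6 FPKM for gst-14 to 7025 FPKM for gst-4.

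The unstressed levels of the gst genes ran from 1.10 to 270 FPKM. gst-1 stood highest before stress, at 270 FPKM, and reached 4048 FPKM. gst-13 went from 211 to 1829 FPKM and gst-6 from 111 to 717 FPKM. These 3 are among the 4 with the highest unstressed level, and their log2 folds of 3.90, 3.12 and 2.70 lie below the list's median of 5.15. gst-5, at a locus it shares with R03D7.5, combined a high start of 106 FPKM with a large rise, to 4551 FPKM. gst-4, used widely as a reporter of SKN-1 activity, started at 105.3 FPKM, like gst-5, and gst-7 at 140 FPKM; they reached 7025 and 4404 FPKM. A high start thus went with small and large rises alike.

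Among those that started below 10 FPKM, gst-12 went from 8.03 to 481 FPKM. gst-16 went from 4.51 to 258 FPKM, and gst-35 from 8.35 to 336 FPKM. These rises lie between 40.2-fold and 59.9-fold. gst-38 rose 266-fold, from 14.01 to 3730 FPKM. gst-39 rose from 25.4 to 309 FPKM and gst-20 from 42.9 to 415 FPKM. gst-14 went from 2.01 to 40.6 FPKM, the lowest of the 14 under stress. gst-20, gst-14, gst-12 and gst-16 lie together within 16.19 kb of chromosome II (ce10, 13608155 to 13624341). Their folds in that order were 9.68, 20.3, 59.9 and 57.3, and members of such families can share reads. The largest fold in the table, 10.14 on the log2 scale for gst-30 (1.10 to 1238 FPKM), carries the largest q of the authors' deposited table, 0.0477.

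**Figure D2:**
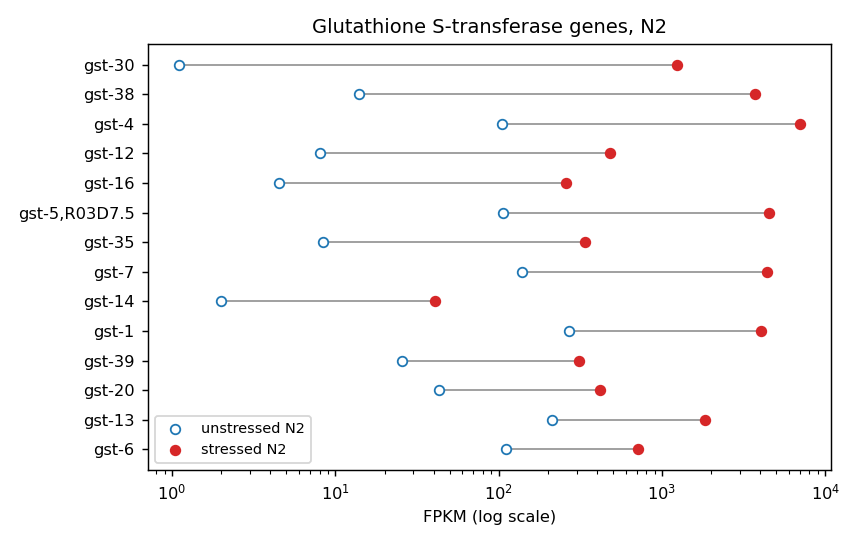
FPKM (log scale) of the 14 listed glutathione S-transferase genes in unstressed N2 (open points) and stressed N2 (filled points), ordered by fold. All 14 filled points lie to the right, and the start levels run from 1.10 FPKM for gst-30 to 270 FPKM for gst-1.

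Of 138 genes of oxidoreductase families 3 rose, 2.17%, 2 of short-chain dehydrogenases and 1 of a cytochrome P450, cyp-34A9 (6.16 to 29.5 FPKM). The short-chain dehydrogenase gene dhs-9 went from 31.8 to 154 FPKM, a smaller rise (log2 2.28) than that of dhs-8 (log2 5.09, from 2.64 FPKM). R05D8.7, outside the list but with the current name dhsl-4, went from 1.54 to 35.2 FPKM. The catechol O-methyltransferase-family gene comt-3 rose from 27.99 to 355 FPKM, at a locus of 9571 bp. Of 67 UDP-glucuronosyltransferase genes 1 rose (1.49%), ugt-13 (11.5-fold), and of 33 genes of peroxide and superoxide enzymes, thioredoxins and glutaredoxins 1 rose (3.03%), the catalase gene ctl-3 (7.57-fold). These counts of 1 are too small to read against the background.

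ATP-driven transporters of the ABC class numbered 2 of 59 (3.39%). mrp-7, of the class of multidrug-resistance-associated export pumps, rose 4.67-fold from 21.7 FPKM, and pmp-5, of the peroxisomal class, fell 24.01-fold from 279 FPKM. Of 133 other transporter genes only swt-6, of the SWEET sugar transporter family, was listed (9.35 to 70.8 FPKM).

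Sulfur amino acid genes split. cbl-1, a cystathionine beta-lyase gene, rose from 58.8 to 328 FPKM. cth-1, a gene of cystathionine gamma-lyase, the type of enzyme that makes cysteine from cystathionine, fell from 103 to 20.3 FPKM. They are the only ones listed of 21 genes for glutathione synthesis and sulfur amino acids, 9.52%. F44G3.2, now named argk-1 for arginine kinase, lies 0.258 kb from cth-1 on chromosome V and also fell, from 38.2 to 3.41 FPKM.

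Metal response genes were 6 of 55 listed, 10.9%, with 5 higher. Beside the arsenite-inducible gene aip-1, the cadmium-responsive cdr genes and mrp-7 these include ftn-1, which encodes ferritin, an iron store, and rose from 8.30 to 122 FPKM. cdr-1 started at 3.51 FPKM and cdr-4 at 42.4 FPKM, and their stressed levels were 38.6 and 395 FPKM. cdr-1 lies 5.44 kb from gst-38. The metallothionein gene mtl-2 was the exception, with a fall from 1218 to 166 FPKM.

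Small heat shock proteins bind unfolding proteins without ATP, and of their 16 genes 4 were listed, 25%. All 4 rose, in 2 pairs of neighbours. hsp-16.2 and hsp-16.41 lie 0.346 kb apart and went from 7.97 to 474 FPKM and from 6.97 to 536 FPKM. hsp-16.11 and hsp-16.49 lie 0.348 kb apart, were listed at 0 without stress and reached 2.47 and 3.32 FPKM. The pairs thus ended at very different levels. The second pair belongs to a duplicated stretch whose other copies, hsp-16.1 and hsp-16.48, are not listed, and how the authors' assignment divides reads between the copies was not tested. None of 59 genes of HSP70, HSP90, HSP60 and cochaperones was listed, which says only that none was called.

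Genes with other roles rose as well. glb-1, a globin gene, went from 31.8 to 1694 FPKM, 53.3-fold. tts-1, a long non-coding RNA known to be abundant in long-lived daf-2 mutants, went from 32.9 to 983 FPKM. fah-1, for the last enzyme of tyrosine breakdown, went from 203 to 2482 FPKM at a locus that also covers K10C2.3, now asp-14. F55G1.9, now pycr-4, a pyrroline-5-carboxylate reductase gene of proline synthesis, went from 36.5 to 426 FPKM. glb-1 and fah-1 are thus among the 12 genes above 1000 FPKM under arsenite.

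Of 225 genes of lipid handling 6 were listed (2.67%), 3 higher and 3 lower. The rises were fil-1, a lipase gene induced by fasting (14.4-fold), far-3, of the fatty acid- and retinol-binding proteins (30.99 to 156 FPKM), and oac-6, an acyltransferase-family gene (6.97 to 43.8 FPKM). The falls were pmp-5, the desaturase gene fat-7 (31.6 to 4.93 FPKM) and the acdh-1 locus. asah-1, an acid ceramidase gene outside the list, rose from 38.3 to 189 FPKM at a locus it shares with K11D2.1.

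Of 575 genes of innate immunity and pathogen response 15 were listed, 2.61%, and 14 of them rose; the list holds C32H11.3, C32H11.4 and K08D8.5 by sequence name. The one that fell is the acdh-1 locus. Some members, such as acdh-1 and ctl-3, are counted in other lists too. The list goes by name and takes in whole name families, such as hrg, oac, asp and cpr, so a member need not have an immune role. K08D8.5, C32H11.3, C32H11.4, dod-24 and dod-17 all lie in a single stretch of chromosome IV, described below. The lysozyme gene lys-2 had the highest unstressed level among the risers, 192 FPKM, and rose to 991 FPKM. The C-type lectin gene clec-17 rose from 4.19 to 36.8 FPKM, while clec-143 started at 0.965 FPKM and reached 64.0 FPKM. irg-3 rose from 23.5 to 269 FPKM, the cathepsin B-like protease gene cpr-3 from 18.9 to 117 FPKM and scl-2 from 33.0 to 204 FPKM. Current names add 5 rows to the list, of which the asp-13 locus fell. Of these irg-5 (F35E12.5) rose 7.02-fold and hrg-10 (Y80D3A.9) 4.74-fold.

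At loci of up to 50 kb, 145 in number, 44 were within 10 kb of another listed locus, in 17 groups. Of these groups 10 held only rising genes, 3 only falling genes and 4 both. Counting neighbours with no other protein-coding gene between them in RefSeq's order, there were 14 pairs, and in all 14 both genes moved the same way; 112 of the 145 rose. No share of neighbours over all genes was computed. Overlapping transcripts or shared reads of neighbours were not tested. Chromosome V held 63 of the 145, or 43.4%, while it carries 25.01% of annotated protein-coding genes. Chromosome I held 8 (5.52%, with 14.4% of genes) and chromosome III 7 (4.83%, with 13.2%). The X chromosome differed in direction, with 10 of its 15 listed genes falling. Among those that fell are the vitellogenin genes vit-1, vit-2, vit-4 and vit-5. ZK813.3, K04C1.5, T27A10.8 and an unnamed locus also fell, and these rows have a direction but no fold. T27A10.8 and the unnamed locus lie beside vit-4. Apart from these, only col-178 and R193.2 fell on this chromosome. The direction on X is therefore not read as a trait of the chromosome.

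On chromosome IV, in a stretch from ZK896.4 to dod-17 chosen after the values were seen (ce10, 12880635 to 12978223), 9 genes rose within 97.6 kb that hold 33 annotated protein-coding genes. Their summed level went from 125 to 5579 FPKM. F55G11.2 was the highest, going from 17.8 to 1797 FPKM, ahead of dod-24 at 1313 FPKM and C32H11.4 at 1244 FPKM. Next came dod-17, at 776 FPKM, and F55G11.8, which went from 28.3 to 265 FPKM. The other 4 ended lower: K08D8.5 reached 76.8 FPKM, C32H11.3 54.8 FPKM, ZK896.4 50.5 FPKM, and F55G11.6, listed at 0 without stress, 1.20 FPKM. The 9 listed genes thus shared a direction and ended at very different levels; the other genes of the stretch were not called.

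Smaller groups of rising genes lay on chromosomes IV and V. C17H12.6 (1.13 to 38.8 FPKM), H20E11.3 (15.4 to 89.6 FPKM) and H20E11.2 (3.61 to 71.5 FPKM) follow each other within 8.39 kb. dct-17 (15.3 to 61.7 FPKM), F35E12.6 (118 to 552 FPKM) and irg-5 (7.02-fold, to 98.3 FPKM) lie within 11.95 kb. C06B3.6 and C06B3.7 lie 0.699 kb apart and went from 15.3 to 218 FPKM and from 0.536 to 17.5 FPKM. B0462.4 and C08E8.10 rose 23.02-fold and 12.5-fold.

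Genes known in the table only by a sequence name made up 77 of the 151 rows, 51.0%, and 62 of these rose and 15 fell. RefSeq now gives 14 of the 77 a name. Of all genes annotated under a sequence name, non-coding ones included, the 77 are 0.404%. Leaving out rows at 0, the 51 that rose had a median of 8.28 FPKM without and 142 FPKM with stress, a median fold of 10.7, and the 50 rising genes with a name had 19.6 and 289 FPKM and a median fold of 12.5. Roles are given here only to those with a current name that states one, apart from the 3 that the immunity list holds.

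The largest rises among them started from a few FPKM. W06H8.2 went from 1.22 to 264 FPKM and the pseudogene T19D12.3 from 1.45 to 208 FPKM. Y52E8A.3, now nxnr-1, went from 6.59 to 746 FPKM, and F56D5.3 from 4.15 to 326 FPKM. These 4, with C32H11.4 and F55G11.2, rose more than every gst gene but gst-30 and gst-38. M03A1.8 (1.77 to 72.2 FPKM), C15A11.4 (3.51 to 142 FPKM) and C06E4.3 (1.19 to 42.4 FPKM) rose between 35.6-fold and 40.8-fold.

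Others ended high after a modest rise. C02D5.4 went from 74.1 to 740 FPKM and C18H9.6 from 107 to 551 FPKM. F53A9.1 reached 402 FPKM from 67.3 FPKM and F20G2.2 reached 394 FPKM from 87.7 FPKM. The locus of ZK792.1, ZK809.5 and ZK809.9 went from 47.8 to 474 FPKM, that of F17A9.4 and F17A9.5 from 39.2 to 348 FPKM, and that of C17C3.1 and C17C3.15 from 48.7 to 314 FPKM. These last 3 rows give a single value for several genes.

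In the middle range F17B5.8 rose from 8.28 to 236 FPKM, C09B8.4 from 22.7 to 266 FPKM and T26H5.9 from 10.4 to 195 FPKM. F44E7.5 rose from 12.9 to 177 FPKM, F53B2.8 from 38.4 to 202 FPKM, F20D6.11 from 31.3 to 160 FPKM and F31F7.1 from 35.7 to 151 FPKM. ZK970.7, now srlf-34, rose from 7.296 to 76.4 FPKM and the locus of T24C4.3 and the claudin-like gene clc-19 (T24C4.4) from 6.95 to 67.8 FPKM. W01F3.2, K09D9.1, C50F7.5, C49G7.10, T10C6.15, T05F1.9, Y58A7A.5, C34C6.7 (now cup-16), R08F11.4 and F15B9.6 ended lower, between 11.05 and 62.9 FPKM. Their folds of 5.63 to 12.8 overlap those of the genes that ended higher.

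**Figure D3:**
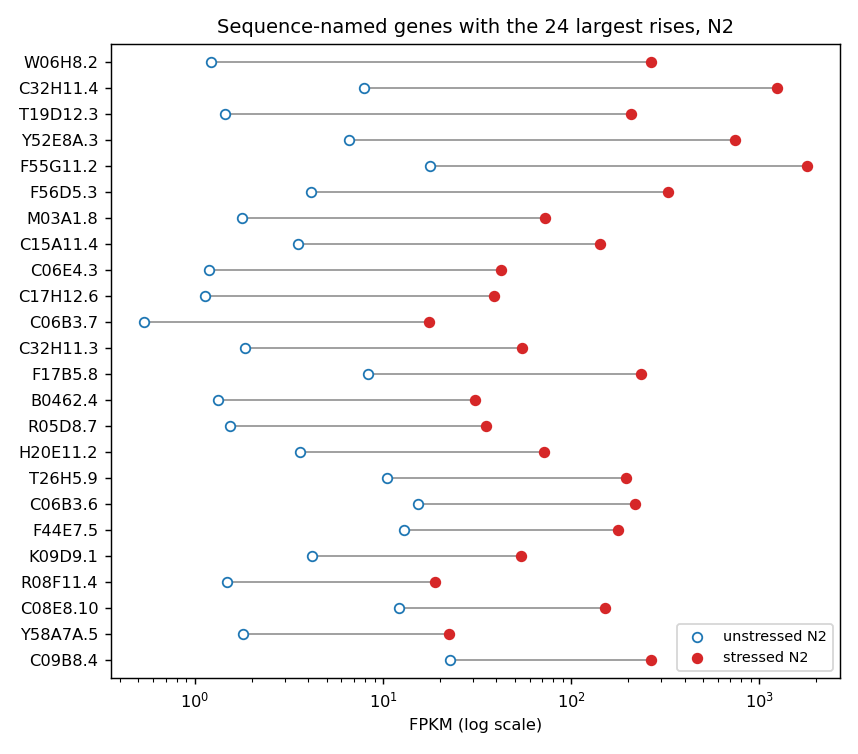
FPKM (log scale) in unstressed N2 (open points) and stressed N2 (filled points) of the 24 genes with the largest rises among those known in the table by a sequence name, ordered by fold. W06H8.2 leads, from 1.22 to 264 FPKM, while F55G11.2 and C32H11.4 reach the highest levels, 1797 and 1244 FPKM.

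Of the remaining rising genes with names, sri-36 and sri-74, chemoreceptor genes at a locus with F33H12.7, went from 9.49 to 137 FPKM. The tetraspanin locus of tsp-1 and tsp-2 went from 1.56 to 19.8 FPKM and cnp-3 from 6.30 to 47.0 FPKM. The merged srz-100, srz-99 and fbxa-127 row stayed low, at 0.358 and 4.38 FPKM. Of 1797 chemoreceptor and other G protein-coupled receptor genes 2 loci were listed (0.111%), both merged with other genes, and the current name of ZK970.7 adds 1 more.

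Among genes above 0 in both libraries, the largest falls were those of vit-4, col-3 and vit-5, genes of yolk and cuticle. Of 6 vitellogenin genes 5 fell, and their summed level went from 580 to 85.9 FPKM; the 4 collagen genes went from 503 to 78.0 FPKM in sum. The collagens are 4 of 380 annotated collagen and cuticle genes, 1.05%. The background for either direction is also 1.05%, but of genes tested. All 4 fell, and the background of falls alone is 0.25%. Vitellogenin RNA is made in the adult intestine, and the fall was uneven: vit-4 and vit-5 fell 164-fold and 33.9-fold, vit-1 7.60-fold, vit-2 6.48-fold and vit-6 4.56-fold. vit-6 and vit-2 started highest, at 236 and 186 FPKM, and fell least. Of the collagens col-3 fell 37.2-fold, col-20 8.51-fold, col-137 8.08-fold and col-178 4.47-fold. The vitellogenin genes are near-identical in part, and members of both families can share reads. How reads were divided between them was not tested. Of 26 markers of intestine, hypodermis, muscle, neurons, germline and oocytes, the 5 vitellogenins were the only ones listed, and no msp gene of sperm was listed.

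Beside vit-4 on the X chromosome, 2 short loci were listed at 0 in stressed animals. An unnamed locus of 194 bp, 6.83 kb from vit-4, stood at 69.7 FPKM without stress, and T27A10.8, a non-coding RNA gene 1.36 kb further on, at 55.5 FPKM. FPKM of loci as short as these rests on few positions, and mtl-2 is the only other listed locus under 300 bp.

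Outside yolk and cuticle the falls included the highest unstressed levels among the 151 rows. The acdh-1 locus, for an acyl-CoA dehydrogenase of propionate breakdown, stood at 3144 FPKM and fell to 430 FPKM. Its value also covers uri-1 and C55B7.3. mtl-2 was the only other falling gene that started above 1000 FPKM. R08E5.3, now rips-1, fell 33.8-fold, the most of any gene outside yolk and collagen. T13F3.6 fell from 46.3 to 4.54 FPKM and F15E11.15, now pud-3, from 145 to 18.5 FPKM.

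The locus of W02F12.2 and W02F12.8 fell from 344 to 53.7 FPKM. That of nssp-59 (F28A12.3) and the aspartyl protease gene asp-13 (F28A12.4) fell from 356 to 72.6 FPKM. C30G12.2 fell from 216 to 44.9 FPKM, F21C10.9 from 88.7 to 17.3 FPKM and DH11.2 from 71.3 to 16.54 FPKM. The F-box gene fbxa-72 fell 4.75-fold, R193.2 4.54-fold and the locus of lin-38 4.01-fold. All of these but the first fell by between 4.01-fold and 5.14-fold, near the smallest change listed.

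**Figure D4:**
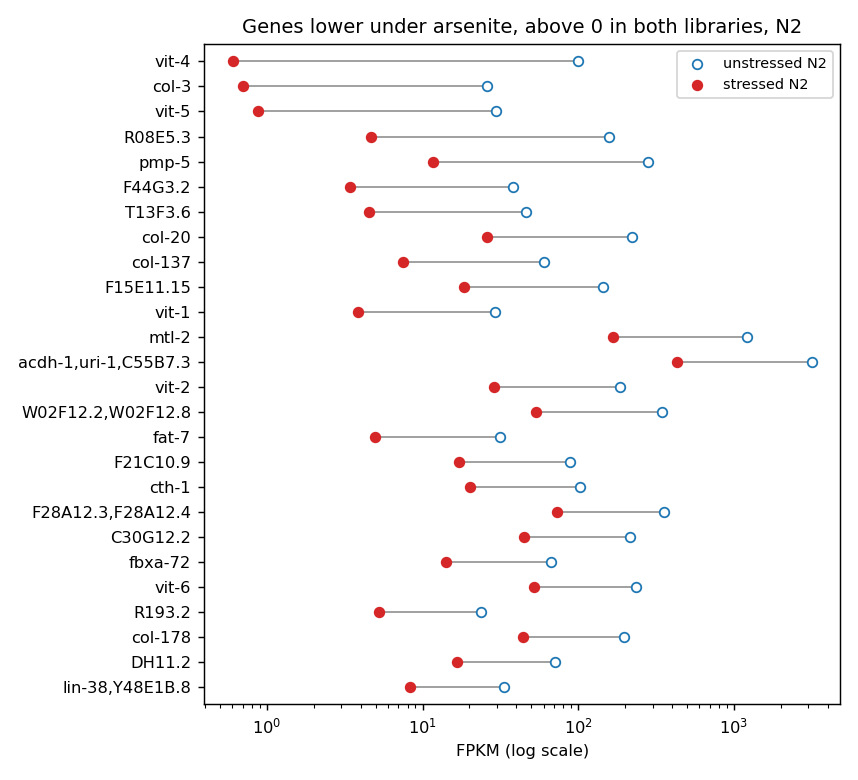
FPKM (log scale) in unstressed N2 (open points) and stressed N2 (filled points) of the 26 genes that fell and are above 0 in both libraries, ordered by fold. vit-4 spans the widest range, from 98.9 to 0.603 FPKM, and the acdh-1 locus has the highest levels, 3144 and 430 FPKM.

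Of the 24 rows listed at 0 in a library, 18 are at loci of up to 50 kb, 11 of them at 0 without stress and 7 at 0 with it. Apart from the hsp-16 pair, the unnamed X locus, T27A10.8 and F55G11.6, the highest were Y75B12A.2 at 59.6 FPKM, the snoRNA gene Y37E3.21 at 14.6 FPKM and F09C6.13 at 11.5 FPKM, all in stressed animals. F09C6.3, which with F09C6.13 spans 6.58 kb, stood at 4.75 FPKM in stressed animals. The other 9 stood below 1.5 FPKM in the library with a value. Of these Y73B6BL.37, F45D3.11, the nhr-247 locus and Y39B6A.23 (now asp-16) were at 0 without stress. The phosphatase gene cdc-25.3, ZK813.3, K04C1.5 and pqn-90 with its neighbour pqn-91, named for their glutamine- and asparagine-rich stretches, were at 0 with stress. At so low a level a 0 can mean few fragments, and library depth is not known.

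The 6 loci wider than 50 kb are each listed at 0 in a library, and they span between 388754 and 888298 bp. Without stress mir-260 stood at 372 FPKM, Y66D12A.29 at 23.9 FPKM and C46H11.3 at 0.513 FPKM, and they were listed at 0 with stress. Y47D3B.15 at 53.5 FPKM, Y47D3B.19 at 0.532 FPKM and F40E3.6 at 0.324 FPKM were listed at 0 without stress. Both Y47D3B rows give the same interval of chromosome III. Each interval is far wider than a worm gene, so these values are not read as changes of the gene named.

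VZ1 gives a separate pair of libraries under the same treatment, with no library in common. Of the 14420 genes tested there 106 were called, a background of 0.735% (0.61% higher and 0.125% lower). Of the 151 genes listed in N2, 74 were also listed in VZ1, 49.01% of the N2 list and 69.8% of the VZ1 list, and all 74 moved the same way. By direction these were 67 of the 115 that rose (58.3%) and 7 of the 36 that fell (19.4%). Sequence-named genes were shared in 35 of 77 rows and named genes in 39 of 73. Of the 98 N2 rows at the authors' smallest p, 5e-05, VZ1 shared 61, and of the 53 other rows 13.

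The reach of the call differed between the strains. The largest p listed was 0.0005 in N2 and 0.00035 in VZ1, and 19 N2 rows lie above the latter, of which VZ1 lists 2. The smallest fold listed was 4.01 in N2 and 5.63 in VZ1, and 25 of the 127 N2 genes with a fold lie below 5.63-fold. A gene missing from the VZ1 table is therefore not shown to respond less there, and the difference was not tested.

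Among functional groups, the gst genes were shared in 12 of 14, the missing ones being gst-14 and gst-30; the VZ1 row of gst-1 also covers cls-2. Of the metal genes 5 of 6 were shared, without cdr-1, and on chromosome IV 7 of the 9 genes of the long stretch were. glb-1 reached 2121 FPKM in stressed VZ1, tts-1 1810 FPKM, fah-1 2771 FPKM, pycr-4 473 FPKM and comt-3 481 FPKM, from 48.3, 44.7, 264, 38.6 and 33.4 FPKM. cbl-1 stood at 54.1 and 349 FPKM in VZ1. These folds lie within 0.5 on the log2 scale of those in N2. The largest differences among shared genes were those of C06E4.3 (log2 5.15 in N2 and 3.59 in VZ1), hsp-16.41 (6.26 and 7.35), ftn-1 (3.87 and 4.85), C34C6.7 (2.83 and 3.78), C50F7.5 (2.49 and 3.43) and W01F3.2 (2.92 and 3.79).

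The 77 genes listed in N2 and not in VZ1 are 48 that rose and 29 that fell, 23 of them at 0 in a library. The largest folds among them are those of gst-30, vit-4, T19D12.3, clec-143 (66.3-fold), the sdz-8 locus (42.1-fold), col-3, vit-5, C06B3.7 (32.7-fold), B0462.4, gst-14, T26H5.9 (18.7-fold) and the tetraspanin locus (12.7-fold). None of the vitellogenin, collagen and cth-1 to argk-1 falls is in the VZ1 table. The unstressed VZ1 levels known for yolk and collagen genes lie between 0.166 FPKM (vit-5) and 9.51 FPKM (vit-2). A further fall from so low a level is hard to call, so their absence is not read as a lack of response. Also absent there are lys-2, asah-1, far-3, cpr-3, clec-17, dct-17 and dhs-9, whose rises in N2 were between 4.02-fold and 8.79-fold.

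For 10 of these 77 genes the tables of VZ1 against N2, each scaled on its own, hold a VZ1 level. These tables call 0.437% of genes without stress (0.0208% higher in VZ1 and 0.416% lower) and 0.508% under stress (0.0209% and 0.488%). They list called genes only, nearly all lower in VZ1, so a VZ1 level below that of N2 follows largely from this selection. Without stress col-137 stood at 0.710 FPKM in VZ1, pud-3 at 10.797 FPKM, vit-5 at 0.166 FPKM, vit-2 at 9.51 FPKM and vit-4 at 2.67 FPKM, all below their unstressed N2 levels of 29.6 to 186 FPKM. The ZK792.1 locus stood at 39.3 FPKM in stressed VZ1, below even the 47.8 FPKM of unstressed N2, and no unstressed VZ1 level is listed for it. For 4 genes both VZ1 levels are given. col-20 went from 3.75 to 0.893 FPKM and col-178 from 4.18 to 1.005 FPKM in VZ1, in the direction of N2. col-3 went from 2.97 to 11.8 FPKM and vit-6 from 6.69 to 12.6 FPKM, opposite to their falls in N2 (log2 −5.22 and −2.19). Neither change in VZ1 was called.

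**Figure D5:**
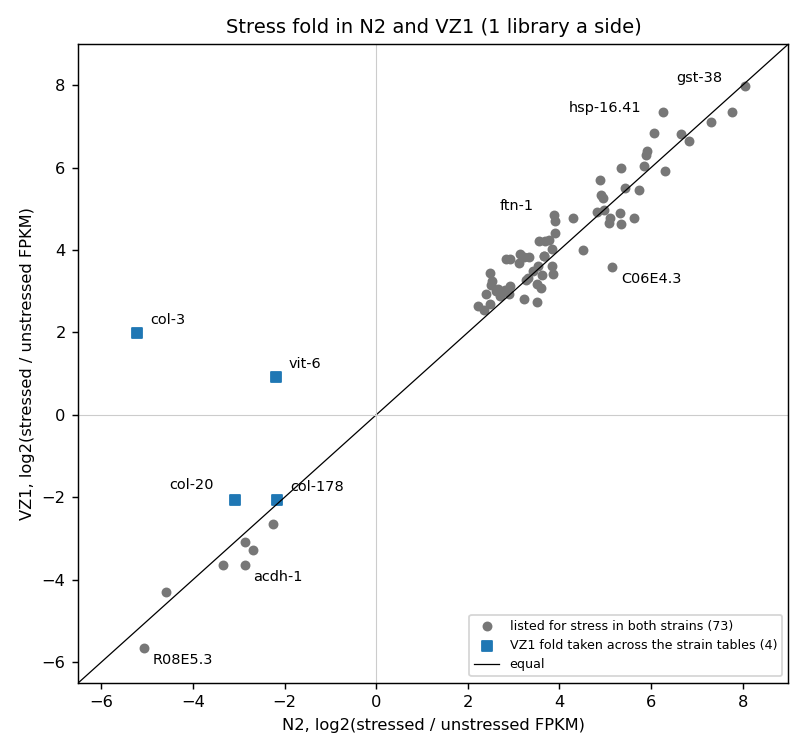
log2 of stressed over unstressed FPKM in N2 (x axis) and VZ1 (y axis) for the 73 genes listed in both stress tables and above 0 in all 4 libraries (circles), and for 4 genes whose VZ1 fold was taken across the strain tables (squares). The circles lie near the line of equal folds, C06E4.3 being the farthest below it. col-3 and vit-6, not called for stress in VZ1, lie above 0 in VZ1 and below 0 in N2.

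The lists of neuropeptides and insulins, sperm proteins, oocyte and eggshell proteins, muscle, and histones had no member among the 151. Transcription factors and nuclear receptors were 2 of 501 (0.399%), the loci of lin-38 and nhr-247, and autophagy and ubiquitin-proteasome genes 3 of 618 (0.485%), aip-1, fbxa-72 and the fbxa-127 locus. Of 19 known SKN-1 targets 11 rose (57.9%), 7 of them gst genes already counted above, and skn-1 itself was not listed. This list was drawn up with earlier results of these data known, so its share is not a separate result. Of 34 genes of amino acid breakdown the loci of fah-1 and acdh-1 were listed, and of 71 prion-like genes 2 (2.82%). A list by longevity-linked names, which also takes in sdz names, had 6 of 96 genes listed (6.25%), all higher. These include the sdz-8 locus, already among the SKN-1 targets, and glb-1, entered singly. Their shared direction is thus not read as a trait of longevity genes. Of 16718 genes whose names mark them as non-coding RNA 2 were listed, tts-1 and mir-260; the list misses non-coding genes known by a sequence name, which are T27A10.8, F45D3.11, Y66D12A.29, Y47D3B.15, Y47D3B.19 and the snoRNA gene Y37E3.21.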

How the data were processed

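RNA-seq libraries of N2 and VZ1, unstressed and stressed, were deposited by the authors as 4 tables, 1 for each pair of libraries sharing a strain or condition. Build ce10, Cufflinks, Bowtie2 and TopHat are named, per the submitters' processing notes, with no versions. The authors' deposited values, per the file headers, are FPKM for each library and a p-value and q-value for each gene, from a 2-library comparison in the layout of Cuffdiff. All 4 tables list called genes only. Genes tested were worked back as q times rank over p, a step checked on simulated lists. It gave 14397 for N2 at each of 10 p-values listed.

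Folds were computed with Python 3.11.15 and pandas 2.3.3. A row carrying several names counts once. Loci wider than 50 kb and rows at 0 were treated apart. All 171 gene names matched a RefSeq gene table (WBcel235), used for names, types and order, never for coordinates. No test was made with 1 library a group. Lists (28, by gene name), named genes and members were chosen with earlier results of these data known. The rule names the 10 largest rises and falls, the 12 sequence-named and the 12 N2-only genes with the largest folds, the 6 sequence-named genes with the highest FPKM, the 6 highest rows at 0, the 6 largest differences from VZ1, and up to 6 members a list; further genes were named after their values were seen. Depth is unknown, so no counting intervals are given. Alternatives varied the pseudocount, FPKM and q limits, minimum fold, wide and merged loci, and the table a level came from.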

Additional observations from a re-analysis of the deposited data

Results flagged for a closer look

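A pair of genes had folds of opposite sign in the strains, with 1 library a group and the VZ1 fold taken across separately scaled tables. Neither gene was called for stress in VZ1, where the smallest absolute log2 fold listed was 2.49. Their VZ1 levels are known only because they were called different between the strains. The difference was not tested. col-3, a cuticle collagen gene, had a log2 fold of −5.22 in N2 (26.02 to 0.700 FPKM) and of 1.99 in VZ1 (2.97 to 11.8 FPKM). vit-6, a yolk protein gene, had a log2 fold of −2.19 in N2 (236 to 51.8 FPKM) and of 0.92 in VZ1 (6.69 to 12.6 FPKM).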

How the results depend on the processing

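Counts of rising and falling genes (115 and 36) stayed within 1.5 times under limits of 1 or 5 FPKM in the higher library, and without wide or merged loci. A pseudocount of 1 cannot change these counts, since it leaves the order of the levels as it is. At a q of at most 0.01, 77 rose and 21 fell. With an absolute log2 fold of at least 3, 69 of the 101 rising and 9 of the 26 falling genes that have a fold were left, the 24 rows at 0 dropping out, and the medians went from 3.601 to 4.22 and from −2.78 to −4.59, since that limit removes the smaller folds. The pseudocount did move 20 single log2 folds by more than 0.5, all of genes at 2.01 FPKM or less in the lower library. It cannot turn a fold. With it gst-30 went from 10.14 to 9.21 and vit-4 from −7.36 to −5.96. Taking N2 levels from the strain tables, where listed there, moved the 10 folds concerned by −0.38 to 0.10. Only col-20, col-178, col-3 and vit-6 have both N2 levels there. For the others, among them vit-4 at −0.38, 1 level stayed that of the separately scaled stress table. The genes shared with VZ1 numbered 74 without wide loci or under a limit of 5 FPKM and 70 without merged loci, alternatives chosen after seeing the data. No wide locus was listed in VZ1, so leaving these out could not change the 74. The planned search for promoter motifs was not run, as no sequences of this organism were used here. No paired analysis was possible because the groups share only 1 replicate number, and VZ1 was not taken as a replicate of N2. Depth is unknown, and changes under 4.01-fold are not listed.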
